A study of Saccharomyces cerevisiae with 12 samples.

Results

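The 9 genes of the RNA polymerase II elongation machinery described here, in budding yeast, are SPT6 and 8 genes whose proteins act with it on transcribed chromatin. They were chosen by gene ID and all 9 were found among the 6571 genes of the deposited RNA-seq table. The 2 groups were WT cells and cells with the spt6 allele tSH2Δ, which lacks the tandem SH2 (tSH2) domain of Spt6, both labelled as strain S288C and each with 3 libraries. The labels name no other allele, and do not say whether each strain is represented by 1 isolate. Both were grown without treatment in YPD, a rich glucose medium, from an OD of 0.2, for 4 h per the library text and to an OD of 1 per the growth text. The study asked what Spt6 contributes to the control of mRNA stability. The 6 ATAC-seq libraries were not analysed here.

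RNA polymerase II copies genes that are wrapped in nucleosomes, and a set of factors rides with it to open the nucleosomes ahead and rebuild them behind. Spt6 is a histone chaperone that binds the polymerase through its tSH2 domain, and Spn1 binds Spt6. Spt4 and Spt5 form a clamp on the elongating polymerase, Spt16 and Pob3 form the histone chaperone FACT, Elf1 is a small factor bound to the elongating polymerase, Chd1 is an ATP-driven nucleosome remodeller, and Spt2 is a chaperone of histones H3 and H4. In yeast, loss of function of several of these factors is known to let transcription start inside genes.

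Library totals were 20483931 to 27069700 reads, and between 513 reads (SPT4, the shortest of the 9 genes, in WT) and 14712 reads (SPT16, in tSH2Δ) lay in a member. Levels are given as rescaled RPKM, that is the authors' reads per kilobase of gene, scaled to library size, divided by a median-ratio factor per library, so that changes are relative to the median gene. In the RPKM as deposited the median gene stood 0.57 higher in tSH2Δ on the log2 scale. Fold changes are differences of log2(rescaled RPKM + 1), tSH2Δ minus WT, with p-values from limma adjusted by Benjamini-Hochberg over all 6307 genes tested. The labels do not say that the libraries came from separate cultures, so each p-value rests on a spread between libraries that may be technical only. Levels are shares of the RNA in a library, so less RNA per cell and a smaller share of the RNA cannot be told apart. Both strains had the genes of haploid a cells, with 6 a-cell genes summing to 3642 to 3790 rescaled RPKM in WT and 1941 to 2112 in tSH2Δ, against 30.3 to 31.0 and 84.8 to 86.7 for 4 alpha-cell genes.

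After rescaling, ELF1, SPT6 and CHD1 fell furthest in tSH2Δ, SPT16, SPT5, POB3 and SPN1 fell by smaller amounts, and SPT4 and SPT2 rose. That made 7 members lower and 2 higher, where 41.9% of all genes tested were called lower and 41.7% higher, and 83.5% were called in either direction. In all 9 the WT and tSH2Δ values did not overlap, which also held for 84.7% of all genes tested. Being called thus sets no member apart from the rest of the genes. The median over the 9 members was -0.46, beside 0.01 over all genes tested. Within a strain the libraries lay close together, with a coefficient of variation of 0.933% to 6.32% in the members.

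**Figure D1:**
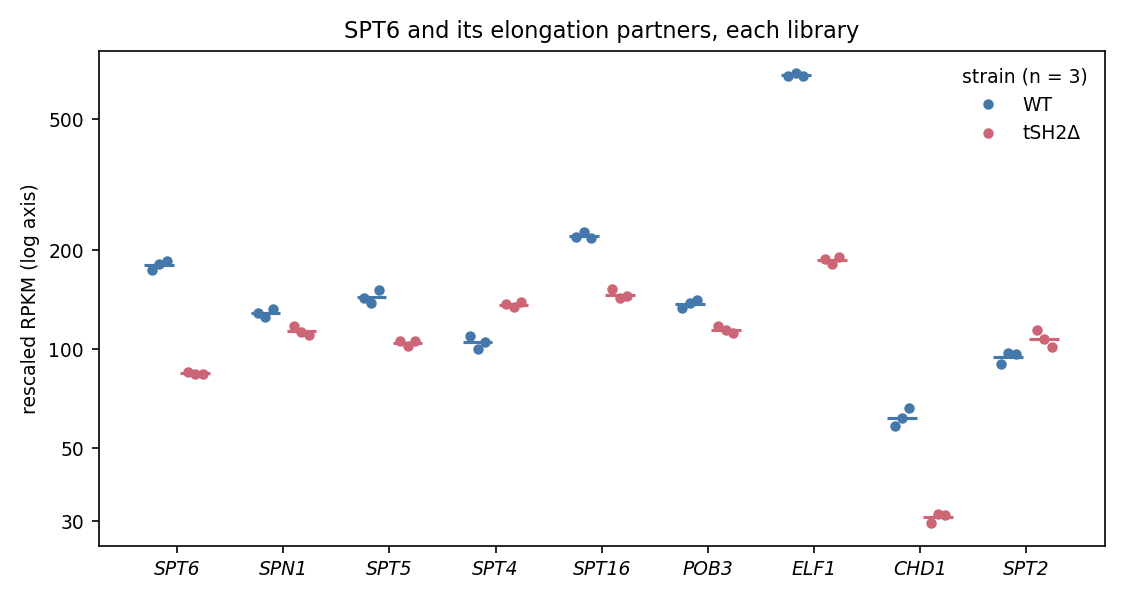
Rescaled RPKM on a log axis of each of the 9 genes in each library, with WT in blue and tSH2Δ in red (3 libraries each), and a line at the group mean. ELF1 stood near 682 in WT and 187 in tSH2Δ, SPT6 near 180.1 and 84.5, and no gene's groups overlapped.

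The balance of rises and falls depended on the scaling, as the plot of fold changes under 3 scalings shows. With RPKM as deposited 5 members were higher, 3 lower and 1 not called, where 72.4% of all genes tested were higher and 17.3% lower (89.7% called). After quantile normalization of the log2 values 3 were higher, 5 lower and 1 not called, where 40.0% of genes were higher and 41.1% lower (81.1% called). Over 5 scalings, SPT6, ELF1 and CHD1 were called lower and SPT4 and SPT2 called higher in each. SPN1, SPT5 and POB3 changed sign, and SPT16 was not called with RPKM as deposited, at -0.0096 (limma adjusted p = 0.823).

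**Figure D2:**
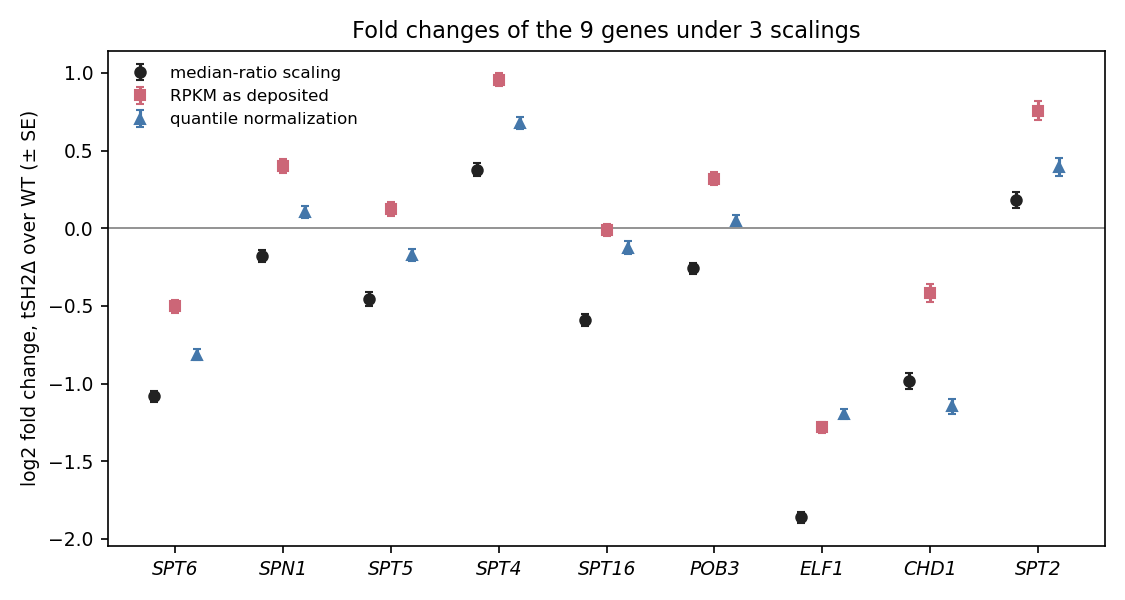
Log2 fold change (tSH2Δ over WT) of each gene with its standard error, under median-ratio scaling (circles), RPKM as deposited (squares) and quantile normalization (triangles). SPT6, ELF1 and CHD1 lie below 0 and SPT4 and SPT2 above 0 under all 3, while SPN1 and POB3 lie below 0 under median-ratio scaling alone.

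SPT6 (YGR116W, chromosome VII, 720409 to 724764, sacCer3) carries the altered allele. It stood at 174, 182 and 185 rescaled RPKM in the WT libraries and at 85.4, 83.8 and 84.4 in the tSH2Δ libraries. Every tSH2Δ library was thus lower than every WT library, and the tSH2Δ libraries differed from each other by little. The change was -1.08 (SE 0.035, limma adjusted p = 3.5e-08), with WT 2.12-fold higher than tSH2Δ. It was -0.50 on the deposited RPKM and, after quantile normalization, -0.81. In rank, SPT6 lay above 83.6% to 84.9% of the genes tested in the WT libraries and above 68.7% to 69.1% in the tSH2Δ libraries. The value of a gene is a mean over its whole annotated length of 4355 bases, so it includes the part missing from the allele and cannot show the deletion itself. How much of the difference lies in that part was not tested.

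SPN1 (YPR133C, chromosome XVI, 795978 to 797210), whose protein binds Spt6, changed little. It had 129, 125 and 133 rescaled RPKM in WT and 117, 113 and 111 in tSH2Δ, a fall of 0.18 on the log2 scale (SE 0.038, limma adjusted p = 0.00219). The sign was opposite with RPKM as deposited (0.40) and after quantile normalization (0.10). A ratio of a pair of genes inside a library does not depend on a factor that divides the whole library, though quantile normalization can move it. The ratio of SPT6 to SPN1 was 1.35, 1.45 and 1.39 in WT and 0.728, 0.742 and 0.761 in tSH2Δ. SPT6 thus exceeded SPN1 in every WT library and lay under it in every tSH2Δ library. The difference of the log2 ratios was -0.90, with means of 0.48 ± 0.05 in WT and -0.42 ± 0.03 in tSH2Δ (SD, n = 3, exact two-sided permutation p = 0.1, which is the smallest that 3 against 3 libraries allow).

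The clamp genes SPT5 and SPT4 went opposite ways after rescaling. SPT5 (YML010W, chromosome XIII, 247677 to 250868), the large subunit, had 143, 138 and 152 rescaled RPKM in WT and 106, 102 and 106 in tSH2Δ, a change of -0.46 (SE 0.042, limma adjusted p = 1.28e-05). SPT4 (YGR063C, chromosome VII, 617516 to 617824), the small zinc-binding subunit, had 109.7, 100.1 and 106 in WT and 137, 134 and 139 in tSH2Δ, a rise of 0.38 (SE 0.041, limma adjusted p = 3.57e-05). SPT4 therefore gained on SPT5 in every tSH2Δ library. SPT5 turned to 0.12 with RPKM as deposited, while SPT4 then stood at 0.96. The ratio of SPT5 to SPT4 was 1.30, 1.38 and 1.44 in WT and 0.776, 0.762 and 0.762 in tSH2Δ. Its log2 value was 0.45 ± 0.07 in WT and -0.38 ± 0.01 in tSH2Δ, a difference of -0.83 (SD, n = 3, exact two-sided permutation p = 0.1). SPT4 passed SPT5 in level, and the groups of ratios did not overlap. How often the ratios of other gene pairs overlap was not tested. Of single genes, 84.7% of all tested did not overlap.

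Both FACT genes were lower after rescaling, SPT16 by more than POB3. SPT16 (YGL207W, chromosome VII, 98969 to 102076), the large subunit, had 219, 227 and 217 rescaled RPKM in WT and 152, 143 and 145 in tSH2Δ, a change of -0.59 (SE 0.038, limma adjusted p = 1.23e-06). POB3 (YML069W, chromosome XIII, 135500 to 137158), which pairs with Spt16, had 133, 138 and 141 in WT and 117, 115 and 112 in tSH2Δ, a change of -0.26 (SE 0.036, limma adjusted p = 0.000171). In these values SPT16 moved from well above POB3 to nearer it. Their ratio was 1.64, 1.64 and 1.54 in WT and 1.29, 1.25 and 1.29 in tSH2Δ. The log2 ratio was 0.68 ± 0.05 in WT and 0.35 ± 0.03 in tSH2Δ, a difference of -0.33 (SD, n = 3, exact two-sided permutation p = 0.1). SPT16 stayed the higher of the pair in all 6 libraries. After quantile normalization the difference was -0.17.

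SPT6 and RPO21, the gene of the largest polymerase subunit to which Spt6 binds, did not separate in this way. RPO21 had 99.3, 98.7 and 112 rescaled RPKM in WT and 44.9, 60.1 and 59.9 in tSH2Δ, a change of -0.91 (SE 0.109, limma adjusted p = 6.53e-05). The ratio of SPT6 to RPO21 was 1.75, 1.84 and 1.65 in WT and 1.90, 1.40 and 1.41 in tSH2Δ. The tSH2Δ libraries spanned the WT ones, with replicate 1 above all of WT and the others below. The difference of the log2 ratios was -0.17, from 0.80 ± 0.08 in WT to 0.62 ± 0.25 in tSH2Δ (SD, n = 3, exact two-sided permutation p = 0.4). Without tSH2Δ replicate 1 this difference was -0.32, and leaving out other libraries brought it as near 0 as -0.097. After quantile normalization its sign turned, to 0.061. Over the 4 pairs compared, the Benjamini-Hochberg adjusted p was 0.133 for SPT6 with SPN1, SPT5 with SPT4 and SPT16 with POB3, and 0.4 for SPT6 with RPO21.

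**Figure D3:**
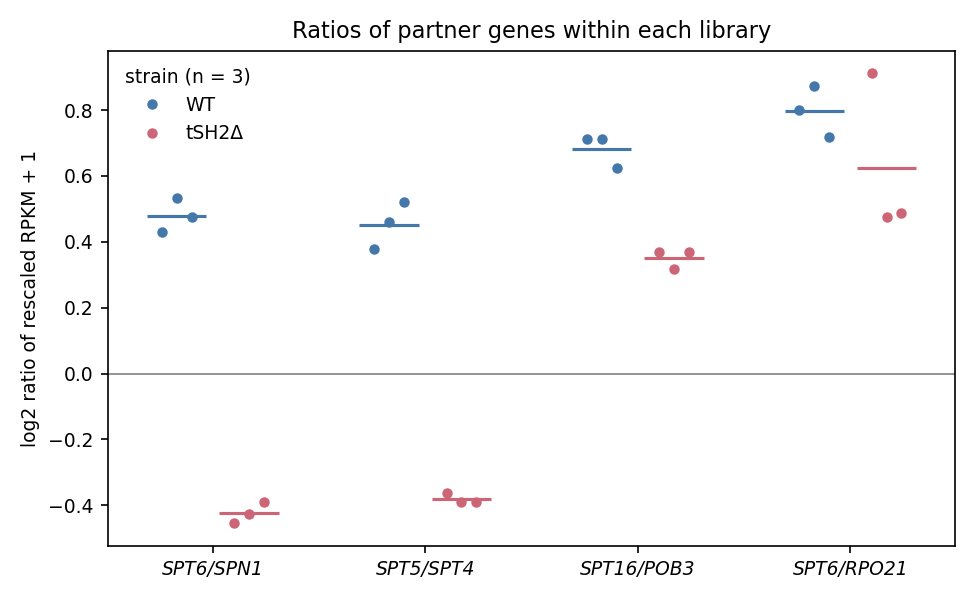
Log2 ratio of rescaled RPKM + 1 of 4 gene pairs within each library, with WT in blue, tSH2Δ in red (3 libraries each) and a line at the group mean. The groups do not overlap for SPT6/SPN1, SPT5/SPT4 and SPT16/POB3, and overlap for SPT6/RPO21. The share of other gene pairs without overlap was not tested.

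ELF1 (YKL160W, chromosome XI, 153269 to 153706) was the member with the highest level and the largest change. It had 677, 690.3 and 679 rescaled RPKM in WT and 188, 182 and 191 in tSH2Δ. The change was -1.86 (SE 0.037, limma adjusted p = 7.48e-09), with WT 3.63-fold higher, and -1.28 with RPKM as deposited. No other member had so wide a gap between the groups.

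The genes of chromosome XI as a whole moved with ELF1. Of 313 genes tested there 277 were called lower and 18 higher, with a median of -0.90 on the left arm, where ELF1 lies, and -0.80 on the right arm, against 0.04 over all other chromosomes. Their median level was 117 to 119 rescaled RPKM in the WT libraries, where genes of other chromosomes had a median of 51.8 to 52.3. The tSH2Δ libraries had medians of 57.5 to 58.6 on chromosome XI and 57.0 to 57.5 elsewhere. So chromosome XI stood apart from the other chromosomes in WT and lay close to them in tSH2Δ, and its part in the change of ELF1 was not tested. Against the median log2 level of the other chromosome XI genes in the same library, ELF1 stood 2.52 ± 0.02 higher in WT and 1.67 ± 0.02 higher in tSH2Δ, a difference of -0.85 (SD, n = 3, exact two-sided permutation p = 0.1). Only 18 other genes of that chromosome had a lower fold change than ELF1. The other 8 members lie on other chromosomes, and without ELF1 6 members were lower and 2 higher.

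**Figure D4:**
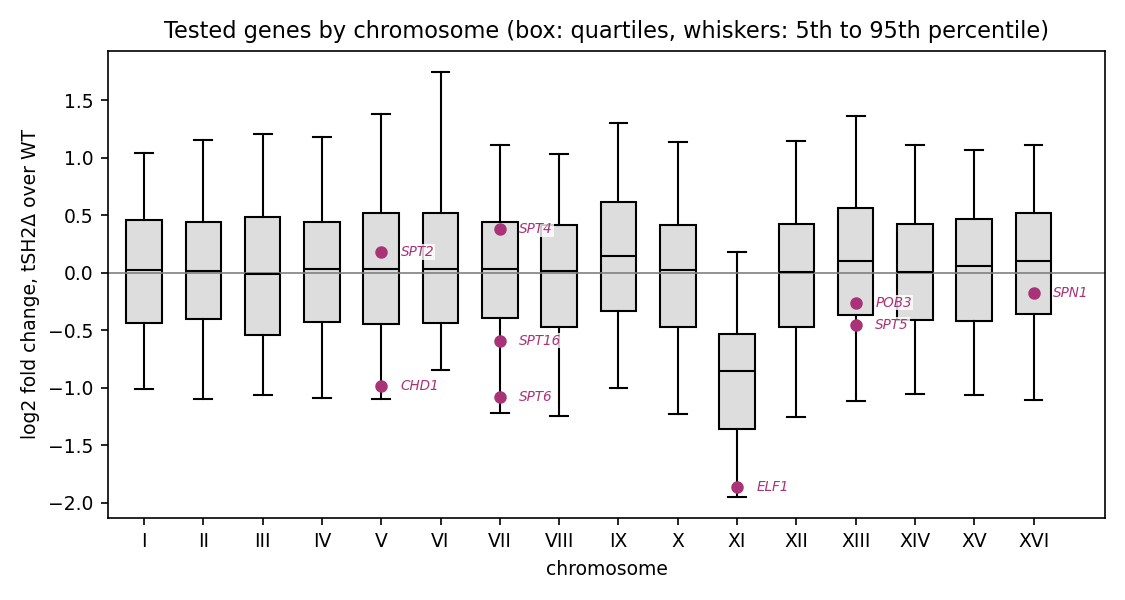
Log2 fold change (tSH2Δ over WT) of the tested genes by chromosome, with boxes at the quartiles, whiskers at the 5th and 95th percentiles and the 9 genes as labelled points. The box of chromosome XI lies below the others, with ELF1 near its lower whisker, and SPT6 and CHD1 lie near the lower whiskers of their chromosomes.

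CHD1 (YER164W, chromosome V, 505392 to 509798) was the member with the lowest level and fell by 0.98 on the log2 scale, beside 1.08 for SPT6. It had 58.3, 61.7 and 66.1 rescaled RPKM in WT and 29.6, 31.5 and 31.4 in tSH2Δ. The groups lay well apart, with SE 0.053 and limma adjusted p = 4.39e-07. The deposited RPKM gave -0.41 and quantile normalization -1.15. CHD1 lay above 53.5% to 57.9% of the genes tested in WT and above 22.5% to 24.3% in tSH2Δ.

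SPT2 (YER161C, chromosome V, 499347 to 500348) rose by a small amount. It had 90.5, 97.1 and 97.0 rescaled RPKM in WT and 114, 107 and 101 in tSH2Δ. Its lowest tSH2Δ library was above its highest WT library by a narrow margin, and the change of 0.18 (SE 0.052, limma adjusted p = 0.0111) had the largest adjusted p among the members. The rise was 0.76 on the deposited RPKM and 0.39 after quantile normalization.

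The order of the members by level, which RPKM allows since it is per length, differed between the strains. In WT it ran from ELF1 through SPT16, SPT6, SPT5, POB3, SPN1, SPT4 and SPT2 to CHD1, and of the neighbours in that order SPT5 and POB3 alone overlapped. In tSH2Δ it ran from ELF1 through SPT16, SPT4, POB3, SPN1, SPT2, SPT5 and SPT6 to CHD1. There POB3, SPN1 and SPT2 each overlapped the next in that order. SPT6 was the third of the 9 in WT and the eighth in tSH2Δ, and SPT4 was the seventh in WT and the third in tSH2Δ. The summed level of the 9 genes was 1733 to 1776 rescaled RPKM in WT and 1011 to 1048 in tSH2Δ, of which ELF1 made up 38.3% to 39.2% and 18.0% to 18.7%. Leaving ELF1 out, WT libraries summed to 1057 to 1096 and tSH2Δ libraries to 830 to 860, and the groups still did not overlap. On the deposited RPKM the order was the reverse, with 859 to 909 in WT and 1001 to 1062 in tSH2Δ without ELF1.

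Fold changes fell with level over all genes tested, and most members have high levels. SPT6, SPN1, SPT5, SPT4 and SPT2 belong to the eighth of 10 equal groups of genes by mean level (89.9 to 125 rescaled RPKM), where the median change was -0.28 and 61.1% of genes were called lower. SPT16 and POB3 are in the ninth, where the median was -0.45. ELF1 is in the highest, where the median was -0.83 and 86.7% were called lower. CHD1 is in the fourth (34.3 to 44.2 rescaled RPKM), where the median was 0.23 and 24.7% were called lower. SPT6, ELF1 and CHD1 lay well under the medians of their groups, SPT16 a little under and SPT5 under its group's, while POB3, SPN1, SPT4 and SPT2 lay above. The part of level in the members' changes was not tested.

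**Figure D5:**
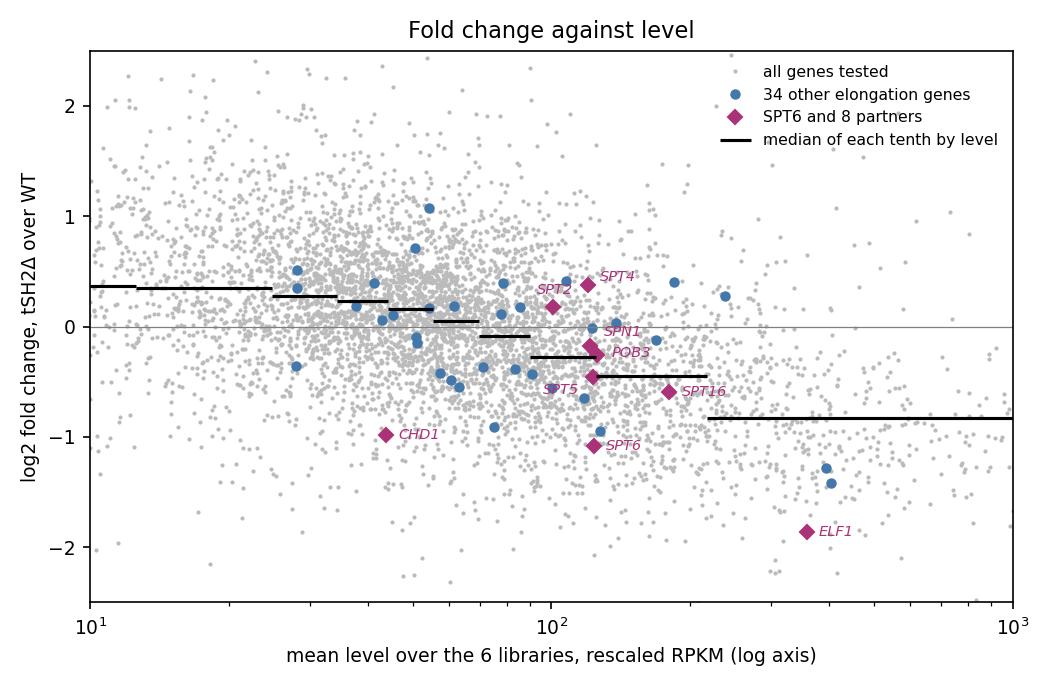
Log2 fold change against mean level over the 6 libraries (rescaled RPKM, log axis) for all genes tested (grey), 34 other elongation genes (blue) and the 9 genes (diamonds), with bars at the median of each of 10 equal groups by level. The bars fall from left to right, and CHD1, SPT6 and ELF1 lie below theirs while SPT4 and SPT2 lie above. The axes leave out 662 genes.

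The authors' deposited table lists 4 of the 9 members. In the authors' deposited table the log2 ratios were -1.28 for ELF1, -0.50 for SPT6, 0.76 for SPT2 and 0.95 for SPT4, from RPKM without rescaling. The DESeq2 adjusted p in the authors' deposited table was 1.94e-157 for SPT6, 0.00530 for SPT2 and 0.000164 for SPT4, and was listed as 0 for ELF1. The ratio is one of mean RPKM, while the p-value is from a DESeq2 test, so the p-value need not refer to that ratio. The genes in the authors' deposited table all had a log2 ratio of at least 0.5 in size, a size that the other 5 members did not reach with RPKM as deposited. All 4 listed members had the same direction under median-ratio scaling.

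The nearest annotated genes on each side of the members went both ways, some with and some against their member. RefSeq has 18 such neighbours, of which 17 were in the table, and none overlaps a member. Of these 8 were higher, 6 lower and 3 not called, beside 41.7% and 41.9% of all genes tested called higher and lower. On the deposited RPKM 12 were higher, 4 lower and 1 not called, beside 72.4% and 17.3% of all genes. SPT6 lies between DAM1, a kinetochore gene on the same strand that rose by 0.95 (SE 0.042, limma adjusted p = 1.51e-07), and YGR117C, which rose by 0.55. Its own fall therefore stood between a pair of rises. CHD1 lies between GCG1, a glutathione-degrading enzyme gene (0.18), and PAB1, the poly(A)-binding protein gene, which starts 574 bases past it on the same strand and fell from 924 to 248 rescaled RPKM (-1.89). ELF1 lies between KDX1, a gene of a MAP kinase relative, which rose by 0.69 although it is on chromosome XI, and the calcineurin regulator gene RCN1 (-1.07). SPN1 has RPS23B (-1.07), a ribosomal protein gene with a near-identical copy and so with uncertain reads, on one side and TOM5 of the mitochondrial import channel (-0.35) on the other.

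The neighbours of the clamp and FACT genes were also mixed. SPT4 lies between COX18, a mitochondrial insertase gene (0.16, not called) and the biotin transporter gene VHT1, which rose by 1.16. SPT5 lies between the repair gene RAD33 (0.03, not called) and the mitochondrial ribosomal gene MRPL39 (-0.60). SPT16 has SIP2, a subunit gene of the Snf1 kinase, at 0.58 and the clathrin heavy chain gene CHC1 at -0.76, and POB3 has the dihydroxyacetone kinase gene DAK1 (0.08, not called) and ITT1 (0.89). SPT2 has the repair gene RAD4 at 0.81, and its other neighbour, YER159C-A, was not in the table. SPT6, ELF1, POB3 and SPT2 had a lower fold change than each tested neighbour, and SPN1 a higher one than both of its own.

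Open reading frames that have no RefSeq entry lie beside SPT6 and SPT4 by their systematic numbers, and were picked after their values were seen. YGR115C, with 779 bases and the opposite strand letter, is numbered between DAM1 and SPT6, which are 484 bases apart, so it cannot be placed there without overlapping one of them. It had 234, 236 and 267 rescaled RPKM in WT and 129, 122 and 117 in tSH2Δ, a change of -0.99 beside -1.08 for SPT6. YGR114C, numbered next to it, changed by -1.003. YGR064W, with 368 bases in the 252 bases between SPT4 and VHT1, changed by 0.39 beside 0.38 for SPT4. These frames had the direction of the member and nearly its size. No source used here gives the strand setting of the counting, so reads of overlapping frames and of the member cannot be told apart.

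The genes whose profile over the 6 libraries was nearest to that of SPT6 were TIF11, RPC31, OXP1, TIF35 and SFT1. Likeness was the root mean square distance between log2 values centred on the WT mean, over 5542 genes with a standard name, and it was 0.012 to 0.024 for these genes. They encode the translation factor eIF1A, an RNA polymerase III subunit, an oxoprolinase, an eIF3 subunit and a Golgi SNARE, and OXP1 and SFT1 lie on chromosome XI. With only 2 groups, this distance mainly measures likeness of fold change, so their fold changes of -1.06 to -1.09 follow from how they were chosen. Among the members CHD1 was the nearest to SPT6 at 0.082, with 136 tested genes nearer, and the other 7 stood at 0.35 to 1.03.

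Other elongation genes went both ways, as did the genes tested as a whole. Of 34 genes listed from general knowledge, all tested, 14 were higher, 13 lower and 7 not called. Over all genes tested 41.7% were called higher and 41.9% lower. The list median was 0.01, beside 0.01 over all genes tested. On the deposited RPKM 25 were called higher and 4 lower, beside 72.4% and 17.3% of all genes. The list median was then 0.59, beside 0.57 over all genes tested. Without CTK1 and DEF1, which lie on chromosome XI, 14 were higher and 11 lower of 32. BUR2, the cyclin of the kinase Bur1, rose furthest, from 37.2 ± 1.69 to 79.2 ± 1.25 rescaled RPKM (SD, n = 3), a change of 1.07 (SE 0.042, limma adjusted p = 8.18e-08). RCO1, a subunit of the histone deacetylase complex Rpd3S, followed at 0.72, and RAD26, of transcription-coupled repair, at 0.52.

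The largest fall in that list was that of SUB2, an RNA helicase of mRNA export, from 661 ± 46.2 to 247 ± 13.98 rescaled RPKM (SD, n = 3), a change of -1.42 (SE 0.063, limma adjusted p = 1.58e-07). DEF1, which directs the breakdown of stalled polymerase, was at -1.29. NHP6A, an HMG protein gene that assists FACT, was at -0.95, while its paralog NHP6B was not called (-0.12). No source used here says how reads shared by such a pair were counted. Of the 5 Paf1 complex genes CTR9 and RTF1 were lower and the other 3 not called. Of the 5 genes of CTD kinase complexes, which phosphorylate the tail of the polymerase, 4 were higher and CTK1, on chromosome XI, lower. Of the 4 THO complex genes 2 were higher, THO2 lower and MFT1 not called. Such groups hold few genes, and over all genes tested 41.7% were called higher and 41.9% lower. With RPKM as deposited the genes called lower in these groups, CTR9, RTF1, CTK1 and THO2, stood at 0.19, 0.089, 0.025 and 0.15. After quantile normalization they stayed below 0, and CTK3 turned to -0.042.

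The polymerase subunit genes RPB4 and RPB7, whose proteins form the stalk, did not follow RPO21. RPB4 had 201, 218 and 231 rescaled RPKM in WT and 275, 272 and 241 in tSH2Δ, a rise of 0.28 (SE 0.066, limma adjusted p = 0.00417). RPB7 had 129, 122 and 117 in WT and 119, 118 and 128 in tSH2Δ, where the groups overlapped and the change of -0.01 was not called (SE 0.050, limma adjusted p = 0.812). Both values depended on the scaling. With RPKM as deposited RPB4 stood at 0.86 and RPB7 at 0.57, and after quantile normalization at 0.87 and 0.29.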

How the data were processed

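RNA was sequenced as single-end reads of 50 bases from a stranded, rRNA-depleted kit, per the labels' protocols. For each of 6 libraries the authors deposited the RPKM of 6571 genes. The submitters' processing notes name the build sacCer3 and, for RNA-seq and ATAC-seq together, Trim Galore 0.4.1, Bowtie 1.1.2, HTSeq 0.6.1, SAMtools 1.3.1 and 0.1.9, Bowtie2, deepTools 2.2.4, DESeq, bedtools 2.25.0 and DESeq2, with no role for each. No source used here gives the annotation, the strand setting or the handling of reads with several matches. A second table the authors deposited holds 2890 genes with their mean RPKM, a log2 ratio of mean RPKM plus 1 and an adjusted p-value from their DESeq2 test, per the file headers.

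RPKM times gene length gave whole reads for 100% of values in each library (tolerance 0.01 reads), with 84.6% to 87.6% of the reads in genes. A row without a gene name held 0.585% to 1.08% of the reads in the table and was left out. Replicates differed by more than sampling noise (chi-square per gene 3.08 to 18.2).

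Libraries were divided by median-ratio factors (0.813 to 0.829 in WT, 1.20 to 1.24 in tSH2Δ). Genes that reached 1 RPKM in at least 3 libraries were tested with limma 3.58.1 in R 4.3.3 (lmFit, eBayes with a trend) on log2(RPKM + 1), which understates changes of low genes, two-sided, with a threshold of 0.05 after adjustment over all genes tested. The fit was tested on simulated reads. Ratios within libraries were compared by exact permutation. Symbols and positions are those of RefSeq for assembly R64, with 5897 IDs matched and 674 not.

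The members and lists were chosen with earlier results of these data known. Named are the 9 members, their neighbours, the 3 largest rises and the 3 largest falls called in the list of other elongation genes with RPO21, RPB4 and RPB7, and the 5 genes nearest to SPT6 in profile. Other genes, such as the open reading frames without a RefSeq entry and further list genes, were named after their values were seen. Alternatives covered pseudocount, filter, scaling, limma-voom on whole reads, a replicate block, leaving out each library and leaving out chromosome XI genes, the last for members and list chosen after seeing the data, as were the ratios after quantile normalization and the summed levels and neighbour counts on the deposited RPKM.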

Additional observations from a re-analysis of the deposited data

How the results depend on the processing

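Of 144 values of the 9 members under alternatives, 138 kept direction and call, among them all 54 that leave out a library. The exceptions came from the scaling. With RPKM as deposited SPN1 stood at 0.40, SPT5 at 0.12, POB3 at 0.32 and SPT16 at -0.0096, and after quantile normalization SPN1 at 0.10 and POB3 at 0.0499. With RPKM as deposited 4565 genes were called higher and 1091 lower, in place of 2627 and 2640, with 5 members higher and 3 lower, and 25 other elongation genes higher and 4 lower. That setting keeps the shift of 0.57 in the median gene, which median-ratio scaling takes out. Among neighbours, TOM5 turned to 0.23 as deposited and 0.15 after quantile normalization, RAD33 to -0.10 after quantile normalization and -0.0081 with chromosome XI left out of the scaling, and COX18 to -0.19 after quantile normalization, and the cause was not tested. Leaving out a library gave -0.0215 to 0.0845 for RAD33 and -0.0018 to 0.15 for DAK1. Neither was called with all libraries under median-ratio scaling, and both were called higher as deposited (0.60 and 0.66). COX18, not called with all libraries under median-ratio scaling, ranged from 0.08 to 0.23 with a library left out. It was called higher without WT replicate 1 (0.23, limma adjusted p = 0.0204), with TMM factors (0.21, limma adjusted p = 0.0374) and as deposited (0.71). After quantile normalization COX18 was called lower (limma adjusted p = 0.0452). MRPL39 lost its call as deposited (-0.0194, limma adjusted p = 0.62), and GCG1 after quantile normalization (0.074, limma adjusted p = 0.12). In a setting added after seeing the data, quantile normalization gave a log2 ratio difference of -0.17 for SPT16/POB3 and 0.061 for SPT6/RPO21, and -0.92 and -0.85 for SPT6/SPN1 and SPT5/SPT4. The numbers do not pair the libraries (correlations of deviations -0.25, -0.0863 and -0.277), and the replicate block gave 2518 genes higher and 2534 lower, with 2 members higher and 7 lower. The member with the fewest reads was SPT4, with 513 to 1397.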

Other observations

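Of 7 auxotrophic marker genes, TRP1 was near 0 in both strains, at 0.416 rescaled RPKM in WT and 0.466 in tSH2Δ, and was not tested. LEU2 stood at 49.2 and 15.0, a log2 fold change of -1.65 (limma adjusted p = 1.45e-08), and ADE2 at 62.5 and 99.6. Of 4 haploid genes of the pheromone response, GPA1 and STE18 were not called (-0.02 and 0.03). STE4 (-0.15, limma adjusted p = 0.0071) and FUS3 (-0.13, limma adjusted p = 0.0099) were called lower, as were 41.9% of all genes tested. The a-cell genes were each called lower, from STE2 (-0.37) to MFA1 (-1.55). Among them ASG7 stood at -1.38 and STE6, on chromosome XI, at -1.44. Among alpha-cell genes SAG1 went from 17.2 to 59.6 rescaled RPKM and MF(ALPHA)2 from 9.16 to 24.9, and STE3 from 3.87 to 0.827.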
